A study of Mus musculus with 3 samples.

Results

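Levels of 10 genes for enzymes that process foreign compounds, amines and steroids were followed across the epithelial, fibroblast and muscle cells of the developing mouse prostate. The genes are *Cyp2f2*, *Ugt2b34*, *Fmo1*, *Fmo2*, *Fmo6*, *Sult1e1*, *Gstm1*, *Gstm2*, *Gsta3* and *Maob*, and they are 10 of the 9781 gene rows used. They were chosen by their measured levels across classes of these same cells, so their levels are given as a description and nothing about them was tested.

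The enzymes that modify drugs, other foreign compounds and steroids work in 2 steps. Oxidases such as the cytochromes P450, the flavin-containing monooxygenases and the monoamine oxidases add or expose a reactive group. Transferases then attach a sugar acid, a sulfate or glutathione, which makes the compound more soluble and, for a steroid hormone, usually inactive. The liver holds most of these enzymes, but the prostate, which depends on androgens, has its own set, and steroid conjugation there is known for its part in setting local hormone levels.

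The series holds 3 droplet single-cell RNA-seq libraries from mouse tissue labelled normal, namely male urogenital sinus at E18.5, prostate at P14 and prostate at P35, with 1 library a tissue and no replicate. The mice were of mixed C57BL/6 and 129S1/SvImJ background, the labels give neither a genotype nor the number of animals pooled, and the tissue was digested in medium that contained dihydrotestosterone, an androgen. The table has a row for the reporter *EGFP*, which was among the leading genes of one cluster, and the labels name no transgene. The labels name version 3 of the library chemistry and the study's methods version 2. The barcodes in the table end in 1, 2 or 3, and the labels do not say which tissue an ending stands for. Of the cell numbers that the study states for its tissues, that for the urogenital sinus equals the number of cells in set 1, while the others equal neither remaining set, and no tissue was assigned from them. The cells are therefore described as sets 1, 2 and 3, with their values side by side, and no age is read from them.

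Counting was by unique molecular identifiers (UMIs), of which each captured RNA molecule has 1. Set 1 held 766 cells and a median of 19357 UMIs a cell. Sets 2 and 3 held 5350 and 8360 cells with medians of 1738 and 1801 UMIs, after 97 cells of set 3 with fewer than 200 detected genes were left out. Of all barcodes, 14 occurred in more than one set. Levels are given as counts per 1000000 UMIs (CPM), which is the gene's UMIs summed over the cells of a class in a set, divided by all UMIs of those cells and scaled, with the exact 95% Poisson interval in brackets where shown. Intervals cover counting error only, and free RNA from other cells was not measured.

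Cells were grouped without the use of these 10 genes or of the other enzymes described below, and each cluster was named from markers. In sets 1, 2 and 3, respectively, the basal-like class held 59, 1130 and 1921 cells and the luminal-like class 78, 422 and 958, while the urothelium-like class held 25, 41 and 105. One fibroblast type is named after *Tcf21* and *Col15a1* of its marker list and held 200, 781 and 1462 cells. *Col15a1*, but not *Tcf21*, was among its leading genes. The other type, with *Dpt* and *Lum* among its leading genes, held 147, 893 and 1172 cells. The smooth muscle-like class held 94, 1603 and 1943 cells. *Krt5*, *Krt8*, *Trp63* and *Pbsn*, which usually define prostate epithelium, were not analysed here, so the basal and luminal names rest on other markers. Several names carry markers of other cells. Both fibroblast types carried *Tcf21*, *Col15a1*, *Igf1* and *Ptn* of the one list and *Lum* and *Mfap5* of the other. The smooth muscle-like cluster carried 7 general fibroblast markers beside 8 of smooth muscle, and *Tcf21* as well. Of the basal-like cells 374 lay in finer cluster 12, which a finer clustering named smooth muscle-like, and the 10 smooth muscle markers summed to 1046, 4142 and 2754 CPM in the basal-like cells of sets 1, 2 and 3. In set 1, 11 of 59 basal-like and 6 of 94 smooth muscle-like cells held at least 2 UMIs of the skeletal muscle regulators *Myod1*, *Myf5* and *Msc*, and the same 10 markers summed to 5608 CPM in the latter class, beside 28885 and 28574 CPM in sets 2 and 3, while the 4 erythroid markers of the smooth muscle-like class summed to 5012 CPM in set 1. The urothelium-like class also carried the leukocyte marker *Cd52*, and its 12 leukocyte markers summed to 2751 and 1981 CPM in sets 2 and 3, with 6 and 2 of the 12 at 0. The part of these features in the values below was not tested. Values of a class with fewer than 30 cells in a set are marked as such.

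**Figure D1:**
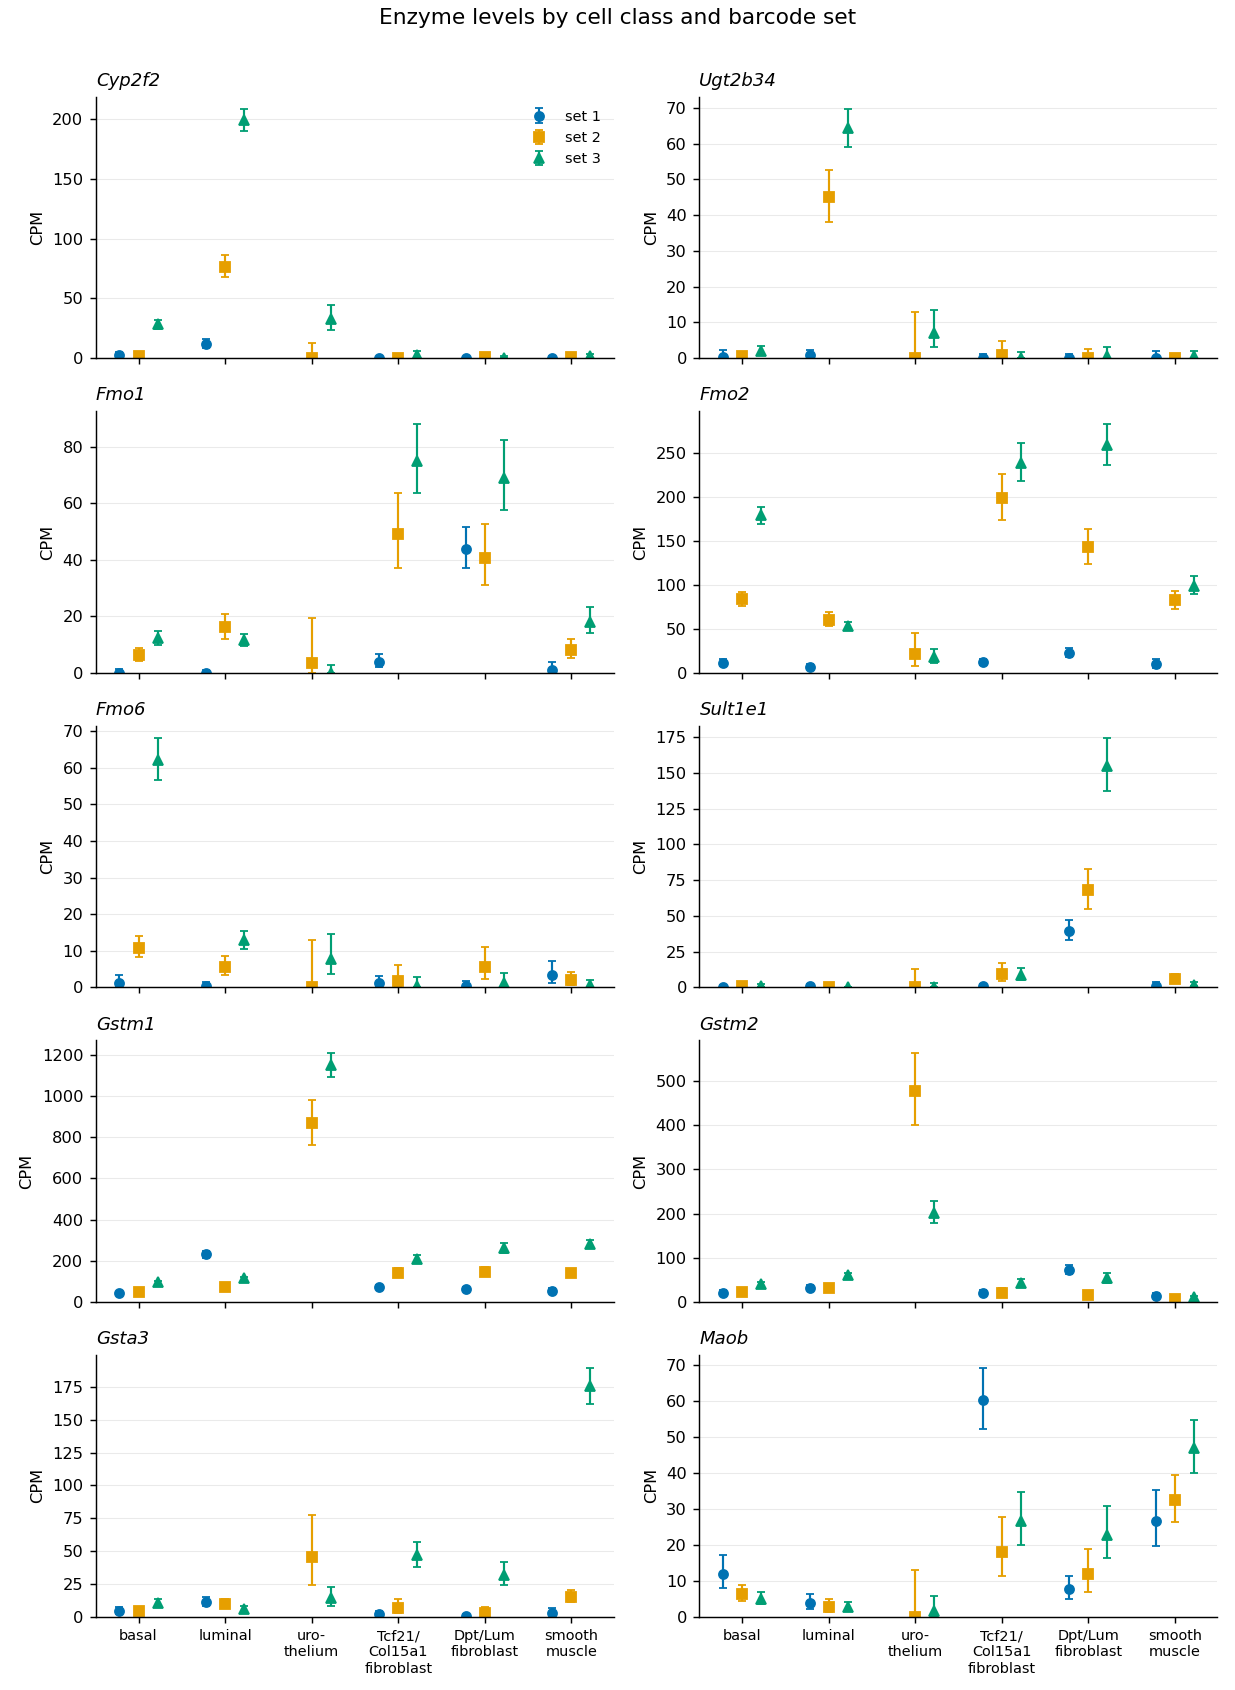
Levels of the 10 enzymes in 6 cell classes, as CPM on a linear axis that starts at 0, for sets 1, 2 and 3 (circle, square and triangle), with exact 95% Poisson intervals for counting error. *Cyp2f2* and *Ugt2b34* were highest in the luminal-like class of sets 2 and 3, *Sult1e1* in the *Dpt* and *Lum* type of fibroblast, and *Gstm1* and *Gstm2* in the urothelium-like class, whose 25 cells of set 1 are not drawn.

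The genes differed in their compartments. A gene was counted as higher in one class than in another when it was at least 2-fold higher in every set in which both classes had at least 30 cells and the gene had at least 20 UMIs over both. *Cyp2f2*, *Ugt2b34* and *Fmo6* were higher in the epithelium-like than in the fibroblast-like cells, 3 of the 10 genes, against 10.5% of the 7628 rows that could be counted. *Fmo1*, *Fmo2*, *Sult1e1* and *Maob* were higher in the fibroblast-like cells, 4 of the 10, against 15.0% of rows. Within the epithelium *Cyp2f2* and *Ugt2b34* were higher in the luminal-like than in the basal-like cells, 2 of 9, against 6.00% of 6867 rows, and 0 of 9 were higher in the basal-like cells, against 7.76% of rows. Between the fibroblast types only *Sult1e1*, 1 of 7, was higher in the *Dpt* and *Lum* type (2.83% of 6437 rows), and 0 of 7 were higher in the *Tcf21* and *Col15a1* type (9.37% of rows). Between smooth muscle-like and fibroblast-like cells, 1 of 7, *Gsta3*, was higher in muscle (3.22% of 6825 rows), and *Fmo1*, *Sult1e1* and *Gstm2*, 3 of 7, were higher in fibroblasts (5.77% of rows). *Sult1e1* had too few UMIs to be counted within the epithelium, and *Cyp2f2*, *Ugt2b34* and *Fmo6* had too few in the last 2 comparisons. Since measured levels chose the genes, these counts describe the list and carry no test.

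**Figure D2:**
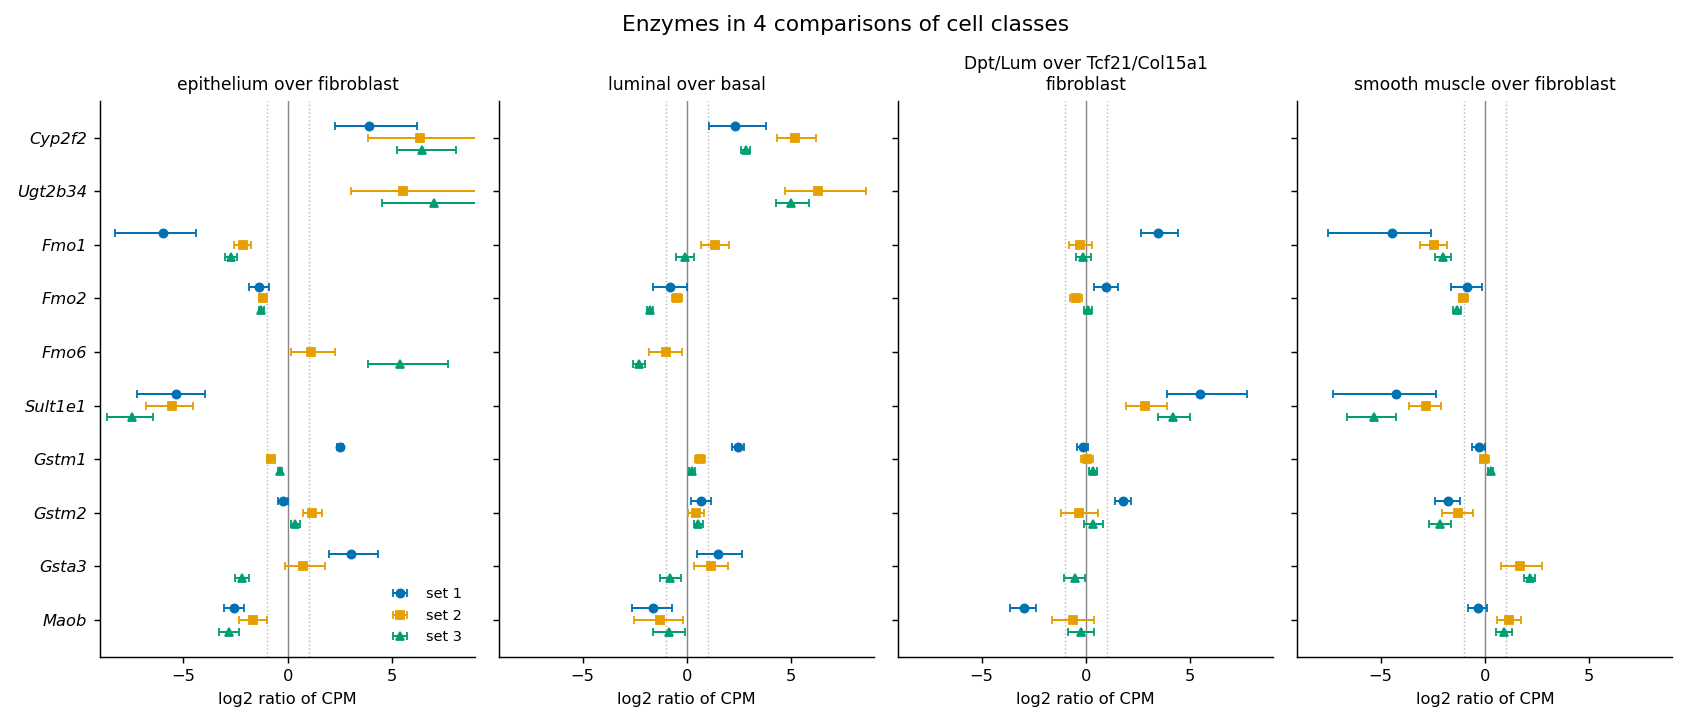
Log2 ratios of CPM for the 10 enzymes in 4 comparisons of cell classes, by set (circle, square and triangle for sets 1, 2 and 3), with exact 95% binomial intervals for counting error; dotted lines mark 2-fold. Genes with fewer than 20 UMIs in a set are not drawn, and where a class had 0 UMIs the ratio was taken against 3 UMIs. *Cyp2f2* and *Ugt2b34* lay to the right in the 2 comparisons with epithelium, *Sult1e1* lay to the left of 0 for epithelium and for muscle over fibroblasts, and *Gstm1* and *Gsta3* lay on both sides of 0 for epithelium over fibroblasts.

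*Cyp2f2* (chr7:27119955-27133660, plus strand, GRCm38.p6) encodes a cytochrome P450 best known from the club cells of the lung, where it activates naphthalene. In the luminal-like cells it stood at 11.8 CPM (8.63 to 15.7) in set 1, 76.5 CPM (67.6 to 86.2) in set 2 and 199 CPM (190 to 208) in set 3. The basal-like cells held 2.39, 2.10 and 28.1 CPM in the same order, so the luminal-like class was the higher one in each set. That difference was 2.30 (1.07 to 3.82), 5.19 (4.33 to 6.21) and 2.82 (2.61 to 3.03) on the log2 scale. The fibroblast-like cells held 0, 1 and 5 UMIs, which is 0, 0.383 and 1.31 CPM. Against the fibroblasts of set 1 the epithelium-like cells were at least 14.7-fold higher, with 3 UMIs taken for the 0, and in sets 2 and 3 the log2 ratios were 6.33 (3.84 to 11.64) and 6.45 (5.23 to 8.08). The urothelium-like cells of set 3 held 33.1 CPM, with an interval that overlapped that of its basal-like cells, and those of set 2 held no UMI in 41 cells, which allows a share of cells with a UMI of up to 7.32%.

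*Cyp2f2* UMIs were thus concentrated in one class. The luminal-like cells held 88.5% of the 52 UMIs of set 1, 93.0% of the 287 of set 2 and 86.8% of the 2092 of set 3. A UMI was found in 14.1%, 35.1% and 40.3% of luminal-like cells, whose median depths were 47184, 6961 and 6788 UMIs. In the leukocyte-like cells of set 3 the share was 2.26% at a median depth of 2003 UMIs, and in the fibroblast-like cells it was 0.19% at 1331 UMIs. After every cell was thinned to 900 UMIs, the luminal-like shares were 1.28%, 5.73% and 13.5%, beside 0%, 0.36% and 2.64% in the basal-like cells.

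*Ugt2b34* (chr5:86889770-86906937, minus strand) encodes a UDP-glucuronosyltransferase, an enzyme that attaches glucuronic acid to steroids, bile acids and drugs. It was the most restricted of the 10 to the luminal-like class in sets 2 and 3, where that class held 97.5% of 161 and 95.1% of 617 UMIs. Its luminal-like level was 0.769 CPM (0.159 to 2.25) in set 1, 44.98 CPM (38.2 to 52.6) in set 2 and 64.3 CPM (59.2 to 69.7) in set 3, so set 1 lay far below the other sets, with 3 UMIs among the 3902324 of its luminal-like cells. The basal-like cells of sets 2 and 3 held 0.571 and 1.98 CPM, log2 differences of 6.30 (4.72 to 8.59) and 5.02 (4.28 to 5.87). Set 1 held 9 UMIs in all, 5 of them in the 25 urothelium-like cells, and too few for a ratio between classes. The fibroblast-like cells held 0, 1 and 1 UMI. A UMI was seen in 22.04% and 31.0% of luminal-like cells in sets 2 and 3, and in 4.53% and 4.87% at 900 UMIs.

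The pair shared a class in sets 2 and 3 and differed within it. Under a finer clustering 54.1% of the luminal-like cells lay in finer cluster 8, which had 813 cells, was led by *Wfdc3* and *Defb1* and met no marker-based name, and 44.99% lay in finer cluster 9, which had 656 cells, was led by *Clca1* and *Asprv1* and was again named luminal-like. *Cyp2f2* stood at 59.9 and 32.1 CPM in finer cluster 8 of sets 2 and 3, and at 86.5 and 378 CPM in finer cluster 9. *Ugt2b34* stood at 45.1 and 72.5 CPM in the former and at 44.4 and 55.8 CPM in the latter. Finer cluster 9 thus held the higher *Cyp2f2* level in both sets, with intervals that just overlapped in set 2 (47.3 to 74.9 and 74.7 to 99.7), while the *Ugt2b34* intervals of the pair overlapped in set 2 and did not in set 3, where cluster 8 was higher. At 900 UMIs a cell, *Ugt2b34* was found in 3.15% of the 127 luminal-like cells of set 3 with *Cyp2f2* and in 5.14% of the 817 without it, with overlapping binomial intervals. In set 2 the order was the reverse, 8.33% of 24 cells with and 4.30% of 395 without *Cyp2f2*, again with overlapping intervals. Over 26 combinations of class and set, which share 3 libraries and their depths, the levels of the pair had a Pearson r of 0.891 on the scale of log2(CPM + 5).

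**Figure D3:**
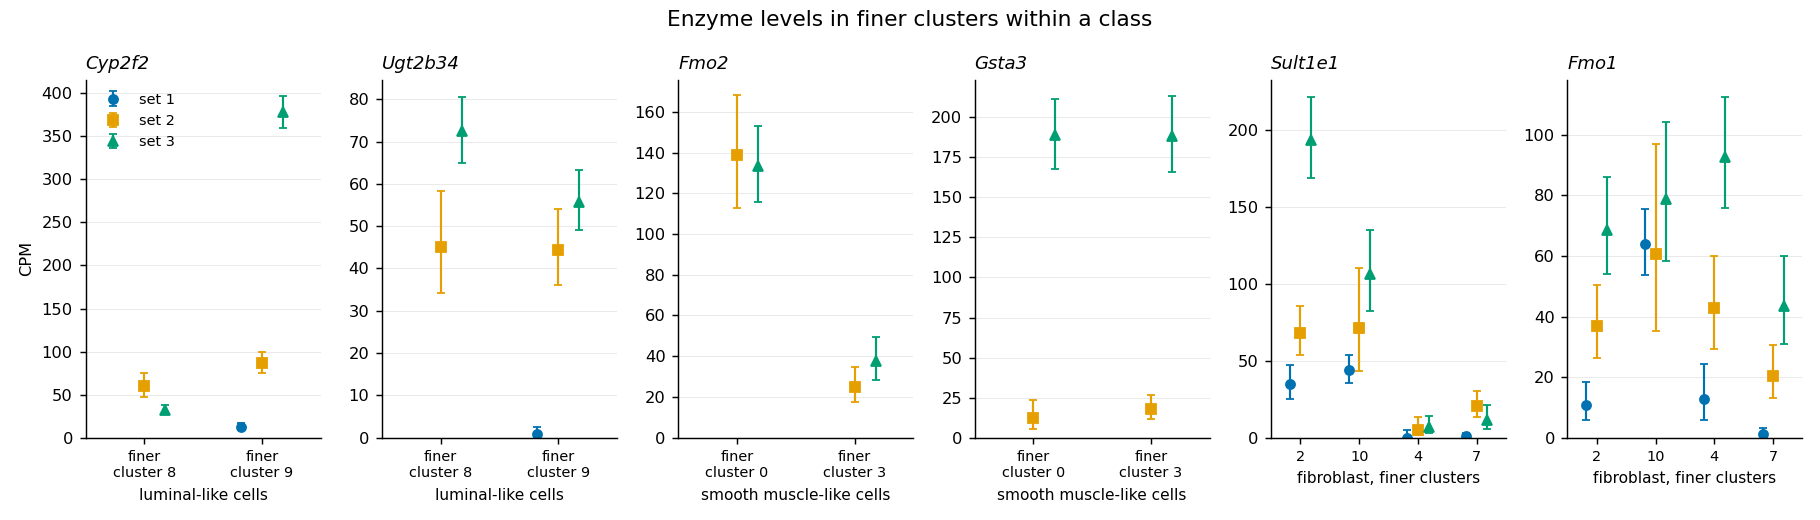
Levels (CPM, linear axes from 0, with exact 95% Poisson intervals) of *Cyp2f2* and *Ugt2b34* in the 2 finer clusters of the luminal-like cells, of *Fmo2* and *Gsta3* in finer clusters 0 and 3, which held 47.1% and 38.3% of the smooth muscle-like cells, and of *Sult1e1* and *Fmo1* in 4 finer clusters named as fibroblasts, of which cluster 7 drew 57.0% of its cells from the smooth muscle-like class, by set; set 1 is drawn where it had at least 30 cells. *Fmo2* differed between clusters 0 and 3 (139 and 134 CPM beside 25.1 and 37.7 CPM in sets 2 and 3) while *Gsta3* in set 3 had overlapping intervals (189 and 189 CPM).

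The 250 bases before the start of each gene are shown for the luminal-like pair, since both genes were highest in the same class. They come from RefSeq's GRCm38.p6 annotation and are written 5′ to 3′ on the gene's strand. Both strands were searched for the core of the xenobiotic response element, GCGTG, which lies in 28.16% of 32851 promoter windows of the same length, and the core of the antioxidant response element, TGACNNNGC, which lies in 10.16%. The *Cyp2f2* window is chr7:27119705-27119954 (plus strand) and the *Ugt2b34* window is chr5:86906938-86907187 (minus strand).
Cyp2f2: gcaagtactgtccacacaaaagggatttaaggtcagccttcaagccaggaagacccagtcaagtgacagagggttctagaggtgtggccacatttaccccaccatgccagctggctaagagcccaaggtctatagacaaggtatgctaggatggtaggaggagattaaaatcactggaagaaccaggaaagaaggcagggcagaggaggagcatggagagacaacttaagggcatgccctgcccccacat
Ugt2b34: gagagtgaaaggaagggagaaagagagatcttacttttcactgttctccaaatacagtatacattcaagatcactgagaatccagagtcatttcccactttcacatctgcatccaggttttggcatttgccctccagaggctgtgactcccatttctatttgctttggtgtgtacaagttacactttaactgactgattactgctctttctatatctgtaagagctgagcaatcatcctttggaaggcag
Neither window held either motif, which says only that these letters are not in these 250 bases, and so no base is in capitals.

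The flavin-containing monooxygenases, which oxidise nitrogen and sulfur atoms in drugs and amines, are encoded by neighbouring genes on chromosome 1. *Fmo1* (chr1:162829561-162866610) lies 7.7 kb from *Fmo2* (chr1:162874317-162898758, minus strand), which lies 17.8 kb from *Fmo6* (chr1:162916551-162937566, minus strand). The 3 neighbours had 3 different patterns: *Fmo1* was highest in fibroblasts, *Fmo2* was high in fibroblasts and also in basal-like and muscle cells, and *Fmo6* was highest in basal-like cells in sets 2 and 3.

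*Fmo1* in the *Dpt* and *Lum* type fibroblasts was 43.9 CPM (37.1 to 51.5), 40.8 CPM (31.1 to 52.7) and 69.2 CPM (57.6 to 82.4) in sets 1, 2 and 3. In the *Tcf21* and *Col15a1* type it was 3.92 CPM (2.09 to 6.71), 49.0 CPM (37.1 to 63.5) and 75.2 CPM (63.6 to 88.2). The types therefore differed in set 1, by 3.48 on the log2 scale (2.67 to 4.43), and their intervals overlapped in sets 2 and 3, where the log2 differences were -0.26 (-0.81 to 0.29) and -0.12 (-0.47 to 0.23). In set 1 the high level lay in a part of the *Dpt* and *Lum* type: of the finer clusters drawn from it, cluster 10 held 63.9 CPM (53.6 to 75.7) and cluster 2 held 10.8 CPM (5.74 to 18.4), which overlapped finer cluster 4 of the other type at 12.7 CPM (5.82 to 24.2). Of the 162 epithelium-like cells of set 1 none held a *Fmo1* UMI, which allows a share of up to 1.85%, and the fibroblast-like cells were at least 63.6-fold higher there. In sets 2 and 3 the epithelium held 9.97 and 10.96 CPM, and the fibroblast-like cells were 4.46-fold and 6.60-fold higher. Smooth muscle-like cells held 1.09, 8.16 and 18.1 CPM, below the fibroblast-like cells in each set by -4.48 (-7.53 to -2.60), -2.45 and -2.00 on the log2 scale, the first from 2 UMIs. Glia-like cells held 32.9 CPM (19.8 to 51.5) in the 21 cells of set 1, which overlapped the *Dpt* and *Lum* type. They held 7.43 and 28.4 CPM in sets 2 and 3, and the pericyte-like cells of set 3 held 30.4 CPM. The fibroblast markers, 9 of them, summed to 786, 2695 and 2072 CPM in the basal-like and to 99.7, 778 and 307 CPM in the luminal-like cells of sets 1, 2 and 3, and their part in the epithelial levels of *Fmo1*, *Fmo2* and *Maob* was not tested.

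*Fmo2*, the form best known from the lung, was the least restricted of the 3 neighbours. It stood at 23.0, 143 and 258 CPM in the *Dpt* and *Lum* type and at 11.8, 199 and 239 CPM in the *Tcf21* and *Col15a1* type. The basal-like cells held 11.2 CPM (7.42 to 16.1), 83.6 CPM (76.0 to 91.8) and 179 CPM (169 to 189), and the luminal-like cells 6.41, 60.4 and 53.1 CPM. Each of these 4 classes held its lowest level in set 1. The fibroblast-like cells exceeded the epithelium-like ones by a similar amount in all 3 sets, 2.55-fold, 2.31-fold and 2.39-fold. The basal-like level was 3.37-fold over the luminal-like one in set 3, while in sets 1 and 2 the ratios were 1.74 and 1.38, and the interval in set 1 included no difference.

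*Fmo2* also divided the smooth muscle-like cells. In the 1718 cells of finer cluster 0 it was 139 CPM (113 to 168) and 134 CPM (116 to 153) in sets 2 and 3. Over all sets together, this cluster was led by the haemoglobin genes *Hbb-bt* and *Hbb-bs*. In the smooth muscle-like cells, however, the 4 erythroid markers summed to 57.5 and 8.49 CPM in sets 2 and 3, beside 5012 CPM in set 1. The contractile genes *Des*, *Myl9*, *Tpm2* and *Tnnt2* were among the leading genes of both finer cluster 0 and finer cluster 3. In the 1395 cells of finer cluster 3, which was led by *Tnnc2*, *Actg2* and *Actc1*, *Fmo2* was 25.1 CPM (17.5 to 34.8) and 37.7 CPM (28.1 to 49.6). Cluster 0 was thus the higher one in both sets, with no overlap of the intervals. Finer cluster 12, which was also named smooth muscle-like but drew its cells almost wholly from the basal-like class, held 92.1 CPM (71.4 to 117) and 164 CPM (139 to 191). The endothelium-like cells of set 3 held 132 CPM (108 to 159) from 198 cells, beside 18.7 CPM in set 2 and 0 UMIs in the 37 cells of set 1. The 15 epithelial markers summed to 2520 CPM in these cells of set 3, beside 1626 and 250.1 CPM in sets 2 and 1, and their part in the *Fmo2* level was not tested.

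*Fmo6* is a further member of the same gene family. Its basal-like level was 10.9 CPM (8.22 to 14.1) in set 2 and 62.1 CPM (56.6 to 68.0) in set 3, beside luminal-like levels of 5.44 CPM and 12.8 CPM (19 and 117 UMIs). The basal-like cells held 61.3% of its 93 UMIs in set 2 and 76.9% of 611 in set 3. The luminal-like cells were lower by -0.996 (-1.83 to -0.23) and -2.28 (-2.58 to -1.98) on the log2 scale, so that set 2, at 1.99-fold, fell just short of 2-fold. Just inside the same limit lay *Fmo6* in the epithelium-like over the fibroblast-like cells of set 2, at 2.20-fold. Set 1 held 16 UMIs in all, too few for a ratio between classes, and its basal-like level was 1.196 CPM (0.247 to 3.49), below those of sets 2 and 3. At 900 UMIs a cell, 0.71% and 5.11% of basal-like cells of sets 2 and 3 held a UMI, beside 0.34% and 0.09% of fibroblast-like cells.

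*Maob* (chrX:16709281-16817366) encodes monoamine oxidase B of the mitochondrial outer membrane, which oxidises phenylethylamine, dopamine and other amines. Its levels were highest in stromal and neuron-like cells. The smooth muscle-like cells held 26.6 CPM (19.7 to 35.2), 32.3 CPM (26.3 to 39.4) and 47.0 CPM (40.1 to 54.7) in sets 1, 2 and 3, and the *Tcf21* and *Col15a1* type fibroblasts 60.3 CPM (52.3 to 69.3), 18.1 CPM (11.2 to 27.6) and 26.6 CPM (19.9 to 34.7). Muscle was the higher class in sets 2 and 3, by 1.15 and 0.93 on the log2 scale over all fibroblast-like cells, and in set 1 the interval of the difference, -0.82 to 0.11, included 0. The neuron-like cells held 40.3 CPM in the 32 cells of set 1, and in sets 2 and 3, where the class had 16 and 19 cells, 49.0 and 244 CPM. The luminal-like cells held 3.84, 2.58 and 2.74 CPM, and the fibroblast-like cells exceeded all epithelium-like cells 5.91-fold, 3.13-fold and 6.94-fold.

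The *Maob* level varied among the finer stromal clusters. In finer cluster 7, whose leading genes include *Sfrp2* and *Tcf21* and whose cells came to 57.0% from the smooth muscle-like class, it was 54.2, 33.3 and 49.4 CPM. In finer cluster 4, led by *Lamc3* and *Fgf21*, it was 42.4, 14.2 and 21.6 CPM. In finer cluster 2, led by *Sult1e1* and *Tnfaip6*, it was 3.31, 8.31 and 17.4 CPM, and finer cluster 10, led by *Dpt* and *Ptx3*, held 9.47, 7.13 and 32.2 CPM. In sets 2 and 3 the muscle clusters held 23.1 and 43.0 CPM (finer cluster 0) and 40.8 and 45.8 CPM (finer cluster 3), and the unnamed finer cluster 6 held 9.01 and 34.6 CPM, the first from 2 UMIs. The clusters did not keep one order across the sets.

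*Sult1e1* (chr5:87575968-87591611, minus strand) encodes estrogen sulfotransferase, which sulfates estrogens and so stops them from binding their receptor. It lies 669.0 kb from *Ugt2b34*, which shares neither its compartment nor its class. The *Dpt* and *Lum* type fibroblasts held 39.8 CPM (33.3 to 47.1), 67.8 CPM (55.1 to 82.6) and 155 CPM (137 to 174), and the *Tcf21* and *Col15a1* type 0.905, 9.46 and 8.52 CPM. The former was the higher type in each set, by 5.46 (3.88 to 7.75), 2.84 (1.94 to 3.89) and 4.18 (3.48 to 4.98) on the log2 scale. It held 92.5% of 146, 68.5% of 143 and 88.1% of 318 UMIs. The epithelium-like cells held 4, 8 and 8 UMIs, that is 0.506, 0.886 and 0.445 CPM, and the fibroblast-like cells were 40.6-fold, 47.2-fold and 175-fold higher. Among the 958 luminal-like cells of set 3 none held a UMI, which allows a share of up to 0.313%.

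The name of that fibroblast type rests on the clustering. Under the finer clustering 70.0% of its cells lay in finer cluster 2, which was then named as the *Tcf21* and *Col15a1* type and led by *Sult1e1* itself, and 25.9% in finer cluster 10, led by *Dpt* and *Ptx3*. *Sult1e1* stood at 34.8, 68.3 and 194 CPM in finer cluster 2 and at 44.0, 71.3 and 106 CPM in finer cluster 10. It was lower in the next clusters with a fibroblast name: 0, 5.18 and 7.21 CPM in finer cluster 4, and 1.30, 20.5 and 11.5 CPM in finer cluster 7, while the unnamed finer cluster 6 held 13.5 and 9.68 CPM in sets 2 and 3. Both clusters drawn from the *Dpt* and *Lum* type were thus the higher ones, whereas under the finer names, which put one of them in each type, the count of 1 gene higher in the *Dpt* and *Lum* type became 0. At 900 UMIs a cell, 2.04%, 5.02% and 8.65% of cells of the type held a UMI, beside 0%, 0.76% and 0.67% of the other type. A UMI of *Sult1e1* did not separate *Fmo1* cells: in set 3, *Fmo1* was found in 7.61% of 92 cells with and 5.15% of 971 cells without *Sult1e1*, with overlapping intervals.

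**Figure D4:**
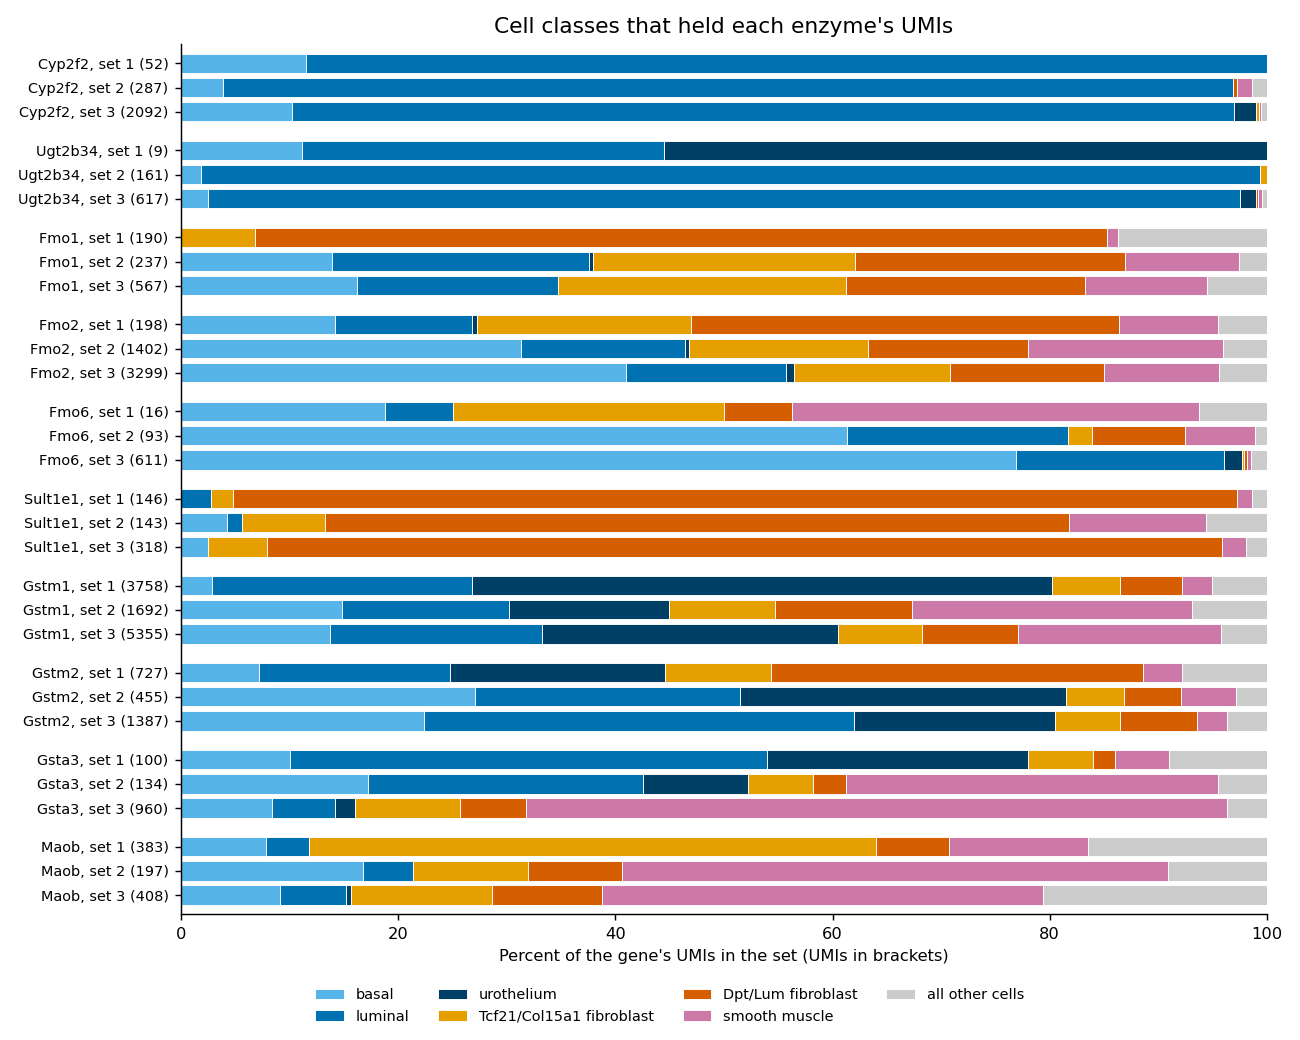
Share of each gene's UMIs, in percent of the gene's UMIs in a set, that lay in 6 cell classes (colours) and in all other cells (grey), with the number of UMIs in brackets. The luminal-like class filled most of the *Cyp2f2* bars (86.8% to 93.0%), the *Dpt* and *Lum* type most of the *Sult1e1* bars (68.5% to 92.5%), and smooth muscle 64.6% of the *Gsta3* bar of set 3; *Ugt2b34* and *Fmo6* in set 1 rest on 9 and 16 UMIs.

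The glutathione transferases, which join glutathione to reactive compounds, were more widely spread. *Gstm1* (chr3:108012250-108017973, minus strand) and *Gstm2* (chr3:107981702-107986420, minus strand) are mu class genes 25.8 kb apart, and *Gsta3* (chr1:21240565-21265575, plus strand) is an alpha class gene. *Gstm1* reached 867 CPM (763 to 982) and 1151 CPM (1092 to 1211) in the urothelium-like cells of sets 2 and 3, and 1345 CPM in the 25 such cells of set 1. Of the classes with values in all 3 sets, the next by median was the *Dpt* and *Lum* type, with 64.2, 148 and 262 CPM. That class overlapped the smooth muscle-like cells, at 55.3, 143 and 283 CPM, and the *Tcf21* and *Col15a1* type, at 70.9, 142 and 207 CPM. The luminal-like cells held 231, 74.5 and 115 CPM and the basal-like cells 42.3, 47.8 and 96.7 CPM, and the luminal-like cells were the higher ones by 2.45, 0.64 and 0.25 on the log2 scale. The leukocyte-like cells were among the lowest, with 20.9 CPM in set 1 and 41.1 CPM in set 3.

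*Gstm2* shared the urothelium-like maximum and differed elsewhere. It was 477 CPM (401 to 564) and 203 CPM (179 to 229) in the urothelium-like cells of sets 2 and 3, and 96.5 CPM in the 25 cells of set 1. The luminal-like cells held 32.8, 31.8 and 60.1 CPM, and the smooth muscle-like cells 14.1, 7.51 and 10.8 CPM. Muscle lay below the fibroblast-like cells in each set, by -1.76 (-2.39 to -1.18), -1.29 (-2.08 to -0.55) and -2.15 (-2.70 to -1.64) on the log2 scale, where *Gstm1* gave -0.29, -0.03 and 0.28. In fibroblasts of set 1 it was 73.3 CPM in the *Dpt* and *Lum* type and 21.4 CPM in the other, and the intervals of the types overlapped in sets 2 and 3. That difference in set 1 lay in finer cluster 10, at 103 CPM (89.6 to 117), while finer cluster 2, drawn from the same type, held 24.9 CPM (16.8 to 35.5), which overlapped the 22.4 CPM (17.9 to 27.7) of finer cluster 7. At 900 UMIs a cell, *Gstm2* was found in 44.4% of 18 urothelium-like cells of set 2 with *Gstm1* and in 26.1% of 23 without, and in set 3 in 19.4% of 31 and 14.9% of 74, with overlapping intervals in each set.

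*Gsta3* was the one gene of the list counted as higher in muscle than in fibroblasts. The smooth muscle-like cells held 15.0 CPM (46 UMIs) in set 2 and 175 CPM (162 to 190) in set 3, beside 4.60 CPM (2.38 to 8.04) and 39.7 CPM (33.6 to 46.6) in the fibroblast-like cells. The log2 differences were 1.71 (0.77 to 2.76) and 2.14 (1.88 to 2.41), and set 1, with 13 UMIs over both classes, was not counted. In set 2, however, the highest level was that of the urothelium-like cells, 45.3 CPM (24.1 to 77.4, from 13 UMIs), whose interval lay above that of muscle. The urothelium-like cells of set 3 held 14.2 CPM (8.41 to 22.4), below muscle, and the 25 cells of set 1 held 16.1 CPM. All epithelium-like cells together held 9.87, 7.75 and 8.57 CPM, with overlapping intervals, while the fibroblast-like cells held 1.19 CPM in set 1. Epithelium was therefore higher than fibroblasts by 3.05 on the log2 scale in set 1, with an interval above 0, not distinguishable at 0.75 (-0.14 to 1.77) in set 2, and lower by -2.21 (-2.55 to -1.88) in set 3. In set 3 finer clusters 0 and 3 held 189 CPM each, while finer cluster 7, which drew most of its cells from the smooth muscle-like class, held 91.8 CPM (72.8 to 114), and finer cluster 12, drawn from basal-like cells, 55.9 CPM (42.1 to 72.8). A UMI was seen in 19.9% of the smooth muscle-like cells of set 3 and in 12.8% at 900 UMIs, beside 5.05% and 3.15% of fibroblast-like cells.

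The promoter windows of these 3 genes are shown because the neighbours *Gstm1* and *Gstm2* were highest in the same class in sets 2 and 3, while *Gsta3* in set 3 was highest in another. Here capitals mark the cores of the xenobiotic and antioxidant response elements as spelled out above, on either strand. The windows are chr3:108017974-108018223 (minus strand) for *Gstm1*, the first of its 2 starts, chr3:107986421-107986670 (minus strand) for *Gstm2*, and chr1:21240335-21240584 (plus strand) for *Gsta3*, whose listed start puts the last 20 bases of the window inside the gene's annotated span.
Gstm1: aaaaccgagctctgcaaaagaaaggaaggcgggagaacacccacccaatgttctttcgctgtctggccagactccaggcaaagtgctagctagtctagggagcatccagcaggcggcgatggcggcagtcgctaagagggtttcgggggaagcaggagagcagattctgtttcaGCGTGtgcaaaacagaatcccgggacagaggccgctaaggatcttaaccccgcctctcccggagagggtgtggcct
Gstm2: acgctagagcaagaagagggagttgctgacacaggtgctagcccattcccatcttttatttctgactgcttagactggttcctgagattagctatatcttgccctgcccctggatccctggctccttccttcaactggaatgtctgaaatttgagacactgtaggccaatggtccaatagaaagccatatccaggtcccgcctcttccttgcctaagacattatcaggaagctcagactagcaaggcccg
Gsta3: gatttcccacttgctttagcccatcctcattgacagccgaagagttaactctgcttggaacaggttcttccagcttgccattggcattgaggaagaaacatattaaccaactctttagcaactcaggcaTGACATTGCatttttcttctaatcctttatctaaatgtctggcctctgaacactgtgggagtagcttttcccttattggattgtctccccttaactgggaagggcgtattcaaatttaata
The *Gstm1* window held GCGTG 76 to 72 bases before the start. The *Gsta3* window held TGACATTGC 121 to 113 bases before the start, and the *Gstm2* window held none of the motifs. Of the 10 genes 8 were in the promoter table, with 10 windows, and the only further hit was the same GCGTG again, since the window of the second start of *Gstm1* overlaps that of the first. A match is a description of these letters and no evidence of binding. *Fmo1* and *Maob* were not in it.

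Transcript ends were compared, since reads from near-identical genes can be split or lost in counting. Of the 451 stretches of 50 bases in the last 500 bases of each transcript, *Gstm1* shared 4 with *Gstm3* and *Gstm2* shared 18 with *Gm6665*. Reads that lie wholly within the shared bases cannot be told apart, and these levels are uncertain to that extent. Reads that reach beyond them were not examined, and only protein-coding transcripts were compared. The other 7 genes with a listed transcript shared none, and *Fmo6* was not in that list.

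Of 30 pairs of a gene and a set, the class with the highest share was the class with the highest CPM in 24, and in 26 after thinning to 900 UMIs.

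For each gene the 3 rows with the most similar pattern over the 26 combinations of class and set were found among 6129 rows. The closest to *Cyp2f2* were 9130230L23Rik (r = 0.905), *Tstd1* (0.888) and *Defb1* (0.862), and to *Ugt2b34* *Tstd1* (0.956), 5330417C22Rik (0.929) and *Cxcl17* (0.908). *Fmo1* was closest to *Serping1* (0.880), *Mt2* (0.845) and *Eif4e* (0.845), *Fmo2* to *Mat2a* (0.889), *Smg1* (0.862) and *Gclm* (0.855), and *Fmo6* to *Cyp2s1* (0.822), *Sh3rf1* (0.749) and *Prr9* (0.718). *Sult1e1* was closest to *Dpt* (0.893), *Ssc5d* (0.850) and *Epyc* (0.850), the first a marker that named its class. *Gstm1* was closest to *Qsox1* (0.777), *Gstm5* (0.769) and *Nucb2* (0.768), *Gstm2* to *Frk* (0.779), *Eya2* (0.779) and *Sprr2f* (0.766), *Gsta3* to *Arid5b* (0.744), *Gstt1* (0.740) and *Yod1* (0.721), and *Maob* to *Hnrnph3* (0.894), *Tceal3* (0.879) and *Slc4a3* (0.865). These values describe 26 points that share 3 libraries and their depths, and say nothing of shared function.

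The other enzymes of these pathways were taken from a list of 164 genes, of which 78 had a row. By the same 2-fold rule, 13 of 67 were higher in epithelium-like cells (10.5% of all rows) and 9 of 67 in fibroblast-like cells (15.0%). Within the epithelium 9 of 61 were higher in luminal-like (6.00%) and 2 of 61 in basal-like cells (7.76%), and between muscle and fibroblasts 1 of 49 was higher in smooth muscle-like (3.22%) and 6 of 49 in fibroblast-like cells (5.77%). In fibroblasts, 4 of 49 were higher in the *Dpt* and *Lum* type (2.83%) and 1 of 49 in the other (9.37%). Those named here had at least 50 CPM in a main class of every set, and the rest are only counted.

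Of the sugar acid and steroid genes, *Ugdh*, which makes the UDP-glucuronic acid that *Ugt2b34* would use, was higher in fibroblast-like than in epithelium-like cells, and higher in basal-like than in luminal-like ones. It stood at 612, 801 and 2113 CPM in the *Dpt* and *Lum* type, 99.9, 328 and 452 CPM in the *Tcf21* and *Col15a1* type, and 33.8, 25.8 and 27.0 CPM in the luminal-like cells. *Papss1*, which makes the sulfate donor that *Sult1e1* uses, and *Hsd17b10* and *Hsd17b12*, which act on steroids and fatty acids, did not pass 2-fold in every set in any comparison. Of the oxidation and reduction genes, the alcohol dehydrogenase *Adh1* was higher in luminal-like (159, 19.5 and 37.2 CPM) than in basal-like cells (35.1, 2.10 and 7.14 CPM), and was also counted as higher in the *Dpt* and *Lum* type. *Pon2* was higher in the epithelium and *Aldh1a3*, which makes retinoic acid, was higher in fibroblasts than in muscle. *Por*, the reductase that serves the cytochromes P450, and *Adh5*, *Akr1a1*, *Akr1b3*, *Aldh2* and *Cyp51* did not pass in any comparison. Of the glutathione genes, *Mgst3* was higher in the epithelium, with 402, 68.2 and 49.3 CPM in luminal-like and 11.8, 16.6 and 12.2 CPM in *Dpt* and *Lum* type cells, and *Mgst1*, *Gclm* and the regulator *Nfe2l2* did not pass in any. *Gstm5* did not pass either, yet had the same high class as its neighbours by name, with 1515 and 683 CPM in the urothelium-like cells of sets 2 and 3.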

How the data were processed

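According to the study's methods and the submitters' processing notes, the authors counted UMIs with Cell Ranger 3.1.0 on mm10, filtered cells and analysed them in Seurat. No treatment of free RNA is given in the sources used here. The table deposited by the authors holds natural log values from 0 to 7.94, although it is named as counts: each is ln(1 + 10000 × the share of the cell's UMIs that belong to the gene). The design had foreseen counts. Whole UMIs were recovered from the lowest values of each cell, and 100% of values above 0 were whole within 0.05. Of 9784 rows, 1 incomplete row and 2 with a shared name were left out, and 9781 of chromosomes 1 to 7, 10, X and part of 8 were used. The cell columns were pooled, as no label ties a barcode to a sample.

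Cells with at least 200 detected genes were integrated by set (20 dimensions), corrected for cell cycle, reduced to 30 principal components and clustered at resolution 0.5 in Seurat 5.3.0 (R 4.3.3), without the enzymes as features. The finer clustering used resolution 1.0. Clusters were named from marker lists, and no doublets were removed in the main result. Sums and ratios were computed in Python 3.11.15 with numpy 2.4.6, scipy 1.17.1 and pandas 2.3.3. Total UMIs of the cells used were 20511786, 15929745 and 27387140 in sets 1, 2 and 3. Shares carry exact Clopper-Pearson intervals, and a share of 0 is given with the limit of 3 counts of the total, which bounds cells with a UMI and not cells that express the gene. For the 2-fold count a sum under 3 UMIs was taken as 3, while printed ratios use the counts themselves unless a class had 0. Each group had 1 library, so no p-value was computed. The ratio script was tested on simulated data. The 10 genes and all lists were chosen with earlier results of these data known. Named were all 10 genes, their 3 most similar rows with at least 20 CPM in a class, and, with the exception given at the end, listed enzymes with at least 50 CPM in a main class of every set. Alternatives were other clusterings, cell filters, thinning, doublet scores and a 4-fold limit. Promoter sequences and coordinates were read from RefSeq tables of GRCm38.p6, and transcript ends from a GENCODE transcript set, matched by symbol. Of the listed enzymes, 1 result is not reported here.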

Additional observations from a re-analysis of the deposited data

Results flagged for a closer look

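For 3 genes a comparison had an interval above 0 in one set and an interval below 0 in another, and the difference between sets was not tested, since no set has a replicate or a labelled tissue. In other comparisons of these and other genes the ratios also had both signs, with an interval that included 0 on at least one side. *Gstm1*, a mu class glutathione transferase, had a log2 ratio of epithelium-like over fibroblast-like cells of 2.50 in set 1, -0.79 in set 2 and -0.37 in set 3. In set 1 the urothelium-like cells, 25 of the 162 epithelium-like cells, held 53.4% of the gene's UMIs. *Gsta3* gave 3.05, 0.75 and -2.21 in the same comparison, and 1.5, 1.15 and -0.79 for luminal-like over basal-like cells. *Fmo2*, for the *Dpt* and *Lum* over the *Tcf21* and *Col15a1* type of fibroblast, gave 0.96, -0.48 and 0.11, and the interval in set 3 included 0.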

How the results depend on the processing

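Of 78 recomputed counts of the 10 genes, 66 stayed within 1.5 times the reported count and 12 did not. The count of 1 gene (*Sult1e1*) higher in the *Dpt* and *Lum* type became 0 at resolution 1.0 and 0 when each cell was classed on its own, beside 3.03% and 2.23% of rows, and without integration that type was not found. The count of 1 (*Gsta3*) higher in smooth muscle-like cells became 2 at resolution 1.0 and 2 when each cell was classed on its own, each adding *Cyp2f2*, beside 4.23% and 3.70% of rows, and 0 at 4-fold, beside 1.30%. At resolution 1.0 the smooth muscle-like class took in finer cluster 12, which drew 98.9% of its cells from the basal-like class. *Cyp2f2* in sets 2 and 3 stood at 0 and 1.93 CPM in finer cluster 0 and at 0 and 1.48 CPM in finer cluster 3. The part of finer cluster 12 in that count was not tested. The count of 0 higher in basal-like cells became 1, with *Fmo6*, without integration, with at least 500 detected genes a cell, without the 5% of cells with the highest doublet score, with cells thinned, and without the finer cluster that carried basal and muscle markers, beside 5.26% to 10.2% of rows. At 4-fold, 2 genes (*Fmo1* and *Sult1e1*) in place of 4 were higher in fibroblast-like than epithelium-like cells, beside 8.23% of rows, 2 (*Cyp2f2* and *Ugt2b34*) in place of 3 were higher in epithelium-like cells, beside 5.11%, and 1 (*Sult1e1*) in place of 3 was higher in fibroblasts than muscle, beside 1.52%. At resolution 1.0 and with cells classed singly, *Fmo2* was no longer counted as higher in fibroblasts than epithelium, nor *Gstm2* as higher in fibroblasts than muscle. *Gstm2* was also lost with at least 500 detected genes a cell, *Fmo6* was lost from the genes higher in epithelium there and with cells classed singly, and *Maob* was lost from those higher in fibroblasts than epithelium without integration. With cells thinned, *Gsta3* joined the latter. *Cyp2f2* and *Ugt2b34* were the 2 genes counted as luminal-like under every alternative run. No called ratio changed sign, and of all ratios 81 of 91 kept their sign at resolution 1.0 and 75 of 84 with cells classed singly. Leaving out set 1, the myogenic cells or that finer cluster were alternatives chosen after seeing the data. *Fmo2* joined the genes higher in fibroblasts than muscle without set 1, with cells thinned, at resolution 1.0 and with cells classed singly. No paired analysis was possible because no group had a second library. In set 1, whose cells had the highest median depth, *Ugt2b34* and *Fmo6* had 9 and 16 UMIs, under the minimum of 20 for a ratio. The causes were not tested.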

Other observations

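Of the listed enzymes, the aldose reductase gene *Akr1b3* shared the high class of *Gstm1* and *Gstm2*: the urothelium-like cells held 1125 and 1114 CPM in sets 2 and 3 and 985 CPM in the 25 cells of set 1, beside 79.1, 203 and 75.6 CPM in the luminal-like cells of the same sets. *Adh1* stood at 97.5 and 83.5 CPM in the urothelium-like cells of sets 2 and 3, above its luminal-like levels of 19.5 and 37.2 CPM. *Gstm5* departed from this in set 1, where the 25 urothelium-like cells held 26.8 CPM.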
